A study of Drosophila melanogaster with 2 samples.

Results

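The genes described here encode structural parts of the insect cuticle and proteins of the cells that secrete it: the cuticular proteins named Cpr, the Tweedle proteins named Twdl and the Osiris proteins named Osi. Members were all protein-coding genes of the Ensembl BDGP6 annotation whose symbol begins with Cpr, Twdl or Osi followed by a digit or a capital letter. There were 118 of them among 13945 protein-coding genes on the 6 chromosome arms, namely 70 Cpr, 23 Twdl and 25 Osi genes. Binding was measured by chromatin immunoprecipitation with sequencing (ChIP-seq) in whole Drosophila melanogaster embryos 8 to 24 h old of the strain slbo-GFP, in which a transgene expresses the transcription factor Slbo fused to eGFP. Slbo belongs to the C/EBP family of basic leucine zipper factors. By their descriptions the samples were precipitated with anti-GFP, although slbo is entered as the antibody. What drives the transgene is not stated. The stage is taken from the source name; the age label of both samples holds a different value, which is not an embryonic age. Both samples were biological replicates of this 1 group, n = 2, and no control samples were analysed here.

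Cuticle is a layered extracellular matrix of chitin fibres and proteins that epidermal cells secrete on their outer face, and late embryos lay down the larval cuticle. Cpr proteins carry the Rebers-Riddiford (RR) domain, which binds chitin. Tweedle proteins form a separate family of cuticle proteins, known in Drosophila from dominant mutations that change body shape. Osiris proteins are insect-specific membrane proteins, most of them encoded side by side on chromosome arm 3R at the dosage-sensitive Triplo-lethal locus.

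A gene was counted as carrying a promoter summit if the summit of a thresholded peak, its highest point, lay within 1000 bp of any of its annotated start sites. Such summits were rare at these genes. In the thresholded list that the authors made from both replicates together, called series-level here, 5 of 118 members had one (4.24%, 95% Wilson interval 1.82 to 9.54), against 36.4% of all protein-coding genes. Replicate 1 alone had 4 such members, against 34.1% of all genes, and replicate 2 alone had 3, against 26.7% of all genes. The share over the replicates was 2.97% ± 0.599 (SD, n = 2) for the members and 30.4% ± 5.28 for all protein-coding genes. No Twdl gene of 23 had a promoter summit in any of these 3 lists. Among Osi genes 1 of 25 had one in each of the 3 lists. Among Cpr genes the series-level list gave 4 of 70 (5.71%), replicate 1 gave 3 and replicate 2 gave 2. The lists hold no read counts, so depth is unknown, the intervals cover counting error only, and no test of the set was made.

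**Figure D1:**
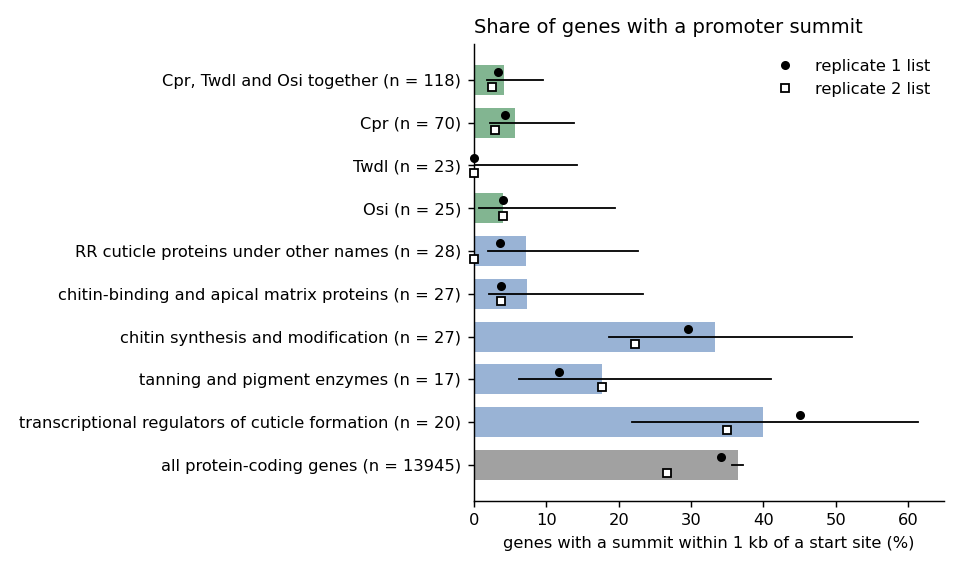
Share of genes (percent, horizontal axis) with a promoter summit, for the 118 members, each family, 5 lists of other cuticle genes and all protein-coding genes. Bars are the series-level list with 95% Wilson intervals, circles and squares the lists of replicates 1 and 2; the Cpr, Twdl and Osi bars lie between 0 and 5.71%, and the bar of all genes is at 36.4%.

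The 5 members with a promoter summit were Cpr73D, Osi24, Cpr67Fb, Cpr62Ba and Cpr65Ay, all on chromosome 3. Around the summits the reference sequence read as follows, on the plus strand of dm6 from the RefSeq copy of that build, 50 bases to each side. Capitals mark matches to TTNCNNAA, a relaxed form of the C/EBP site searched on both strands. These windows are shown because they are the only places near start sites of these genes that passed the threshold in the series-level list.
Cpr73D, chr3L:16956864-16956964: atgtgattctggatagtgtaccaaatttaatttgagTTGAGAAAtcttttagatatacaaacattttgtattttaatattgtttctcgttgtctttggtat
Cpr73D, chr3L:16958580-16958680: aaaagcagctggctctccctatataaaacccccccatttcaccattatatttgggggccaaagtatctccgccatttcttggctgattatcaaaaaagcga
Osi24, chr3R:6198536-6198636: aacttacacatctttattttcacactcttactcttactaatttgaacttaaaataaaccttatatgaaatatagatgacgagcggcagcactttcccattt
Cpr67Fb, chr3L:10893458-10893558: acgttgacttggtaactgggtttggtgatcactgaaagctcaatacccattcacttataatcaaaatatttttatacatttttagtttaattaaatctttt
Cpr62Ba, chr3L:1829705-1829805: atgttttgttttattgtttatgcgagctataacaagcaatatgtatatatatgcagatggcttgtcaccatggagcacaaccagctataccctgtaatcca
Cpr65Ay, chr3L:6158723-6158823: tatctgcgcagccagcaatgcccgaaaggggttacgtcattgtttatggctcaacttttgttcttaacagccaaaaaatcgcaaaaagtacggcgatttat

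Of the 6 windows only the first Cpr73D window held TTNCNNAA, which was in 30.97% of the windows of the same length around all 8714 series-level summits on the arms. For that Cpr73D peak, the window around the replicate 2 summit held the match too, and that around the replicate 1 summit did not. None of the 6 held the C/EBP palindrome TTGCGCAA (0.149% of all windows; each such site is also a TTNCNNAA match), the DNA replication-related element TATCGATA (2.40%) or the Grainyhead-type site AACCGGTT (0.138%). These 3 letter strings read the same on both strands. Absence of a match says only that these letters are not in this window. The share of A and T bases was 74.3% and 56.4% in the windows of Cpr73D, 69.3% in that of Osi24, 72.3% at Cpr67Fb, 63.4% at Cpr62Ba and 57.4% at Cpr65Ay.

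Cpr73D (FBgn0036680; dm6 chr3L:16939100-16957689, minus strand) had the strongest peak of the set. Its signal, the peak caller's own value, was 262.3 in the series-level list, where it ranked 1797 of 8786 peaks. The same place, taken as the strongest summit within 250 bp, had a signal of 151.3 in replicate 1 and 118.1 in replicate 2, each in that replicate's thresholded list. No source says whether signals were adjusted for depth, and so signals of different lists are given side by side and not compared in size. The summit lay 775 bp downstream of the Cpr73D start site, in an intron, and also 525 bp upstream of a start site of Ogdh (FBgn0010352; dm6 chr3L:16954822-16968724, plus strand). Ogdh encodes 2-oxoglutarate dehydrogenase of the mitochondrial citric acid cycle, and the genes overlap on opposite strands, so the peak cannot be given to either of them alone. A second, weaker summit of signal 60.8 (rank 8349) lay 941 bp upstream of Cpr73D in an intron of Ogdh. It was in the thresholded list of neither replicate; the ranked lists, which also hold peaks below the threshold, had it at 23.3 in replicate 1 and 37.8 in replicate 2.

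Cpr73D is 18590 bp long, the longest of the 118 genes, and carried 2 further series-level summits in its body. One, of signal 110.8, lay 2251 bp from the nearest Cpr73D start site, in an exon, and had a signal of 72.3 in replicate 1 and no thresholded counterpart in replicate 2. It also lies inside Ogdh, within 1000 bp of the 5′ end of that gene, and so counts as a promoter summit of Ogdh. It cannot be given to Cpr73D alone. The other, of signal 77.7, lay 1406 bp from a start site in an intron, with 46.2 in replicate 1 and none in replicate 2. The odorant-binding protein gene Obp73a lies inside Cpr73D and had no promoter summit. The next gene on the other side, CG13022, had none either.

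Osi24 (FBgn0037409; dm6 chr3R:6198811-6207678, plus strand) was the only Osiris gene with a promoter summit in the series-level list. Its signal was 146.9 in the series-level list (rank 3555), 90.1 in replicate 1 and 58.3 in replicate 2. The summit lay 225 bp upstream of the start site, 213 bp in replicate 1 and 207 bp in replicate 2. No other protein-coding start site was within 1 kb of it. Its neighbours are NPFR, the neuropeptide F receptor gene, and Osi2, and neither had a promoter summit. Osi24 and Cpr73D were the members with a promoter summit in the thresholded lists of both replicates.

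Cpr67Fb (FBgn0036110; dm6 chr3L:10894173-10894693, plus strand) had a signal of 140.3 in the series-level list (rank 3711), 665 bp upstream of its start site and in no annotated gene. Replicate 1 had it at 81.9. In replicate 2 it was only in the ranked list, at 51.6 with a score of 324, where the score is the authors' measure of reproducibility and no thresholded peak is under 830. The gene is the last of a row of 3 RR genes. The first of the row, Cpr67Fa1 (FBgn0036108), had a summit 532 bp upstream in the list of replicate 1 alone, with a signal of 39.8 and a score of 831, just over the lowest thresholded score. At that place replicate 2 had a ranked signal of 14.9 with a score of 22. Cpr67Fa2, between them, had no promoter summit. The genes on either side of the row did: OXA1L, of the mitochondrial protein insertion machinery, with 83.6 (52.9 in replicate 1), and Aps, an inositol polyphosphate phosphohydrolase gene, with 194.8 (149.8 in replicate 1). Neither had one in replicate 2.

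Cpr62Ba (FBgn0035279; dm6 chr3L:1824129-1831783, minus strand) had a signal of 82.8 in the series-level list (rank 6484), 813 bp upstream of its inner start site and in an intron of its longer transcript. Replicate 2 had it at 44.1 with a score of 970. Replicate 1 had it only below the threshold, at 43.7 and a score of 318. Its neighbour Cpr62Bb lacked a promoter summit.

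Cpr65Ay (FBgn0085300; dm6 chr3L:6158075-6158630, minus strand) had the closest summit, 143 bp upstream of the start site, and the weakest signal of the 5 genes, 69.9 (rank 7581). It was in the thresholded list of neither replicate, and the ranked lists had it at 34.6 in replicate 1 and 33.7 in replicate 2. Neither neighbour, CG13297 or Cpr65Az, had a promoter summit. Cpr67Fb, Cpr73D and Osi24 were above the median signal of the series-level list, 120.9.

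The members just outside the distance of 1000 bp were Cpr67Fa1 at 1090 bp from the nearest series-level summit (signal 112.3), Osi21 at 1129 bp (79.4), Cpr62Bc at 1173 bp (72.3), Cpr65Av at 1200 bp and Cpr65Aw at 1239 bp (66.5, the same summit). Those just inside were Cpr62Ba at 813 bp and Cpr73D at 775 bp. Beyond these, Cpr51A, Cpr65Ec, Osi22, Cpr76Ba and Cpr67Fa2 followed at 1483 to 1794 bp. The Cpr51A summit, of signal 163.3 (100.8 in replicate 1, 63.4 in replicate 2), lay in an intron of that gene. Cpr76Ba was 1611 bp from the strongest of these summits, with a signal of 596.6.

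At the median the nearest summit was farther from members than from all protein-coding genes. The median distance from a start site to the nearest series-level summit was 8254 bp for Cpr genes, 11590 bp for Twdl genes and 30640 bp for Osi genes, against 2983 bp for all protein-coding genes. Of the 25 Osi genes, 21 lie in 1 run, and 12 of the 23 Twdl genes lie in another, so distances within a family are not independent. The closest Twdl gene, TwdlQ, was 3193 bp from a summit. Within 10 kb of a summit were 36 of 70 Cpr genes (51.4%), 9 of 23 Twdl genes (39.1%) and 6 of 25 Osi genes (24.0%), against 76.1% of all protein-coding genes. The farthest member, Osi11, was 70171 bp from one.

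**Figure D2:**
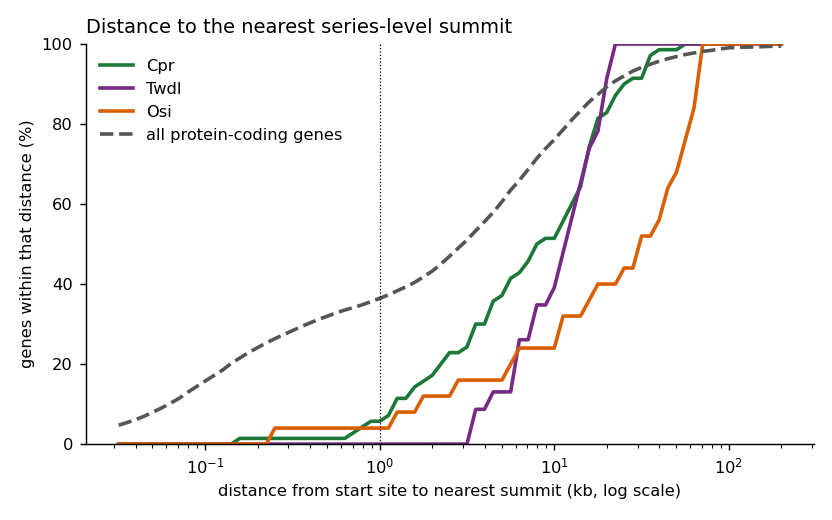
Percent of genes (vertical axis) whose nearest series-level summit is within a given distance of a start site (horizontal axis, kb, log scale), for Cpr, Twdl, Osi and all protein-coding genes; the dotted line is 1 kb. The 3 family curves run below that of all genes up to 10 kb, and the Osi curve is the lowest at 20 kb, where it has reached 40%.

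Many of these genes lie in runs. With start sites up to 20000 bp apart and at least 5 members to a run, 5 runs held 55 of the 118 genes in 260 kb. They held 3 series-level summits, 1.15 per 100 kb, against 6.51 per 100 kb over the arms. Runs were bounded by the outer ends of their genes, so the Osi24 summit, 225 bp upstream, is not among these 3. Promoter summits were found at 2 of the 55 genes, Osi24 and Cpr65Ay, and at 1 of the 25 other protein-coding genes inside the runs, TpnC47D, a troponin C gene. Of the remaining 63 members, outside runs, 3 had one. The share over all protein-coding genes was 36.4%, and members were below it both inside and outside runs.

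The Osi run reaches across 142.6 kb of 3R with 21 Osi genes, Osi24 first and Osi20 last, and 5 other protein-coding genes. Between its first start site and its last gene end there was no summit in the series-level list and none in either replicate's thresholded list. The Osi24 summit just before it was followed by a gap of 147 kb to the next summit, which had a signal of 63.0 and lay 25 bp from a start site of SmD2, a spliceosome component gene. Of the 8708 gaps between neighbouring summits on the arms, 56 were at least as long, and the median gap was 5.74 kb. The conservative series-level list had 1 summit inside the gap, 625 bp upstream of Osi14 (FBgn0040279), with a signal of 55.1 and a score of 912. Within 250 bp of it, the ranked lists had summits of 35.5 in replicate 1 and 31.6 in replicate 2, with scores of 219 and 366. These lay at 6298688 and 6298515, against 6298503 in the conservative list. The series-level ranked list had a further peak, of signal 43.9 and score 582, nearer to the replicate 1 summit. The value of 35.5 may therefore belong to that peak. Outside the run, Osi1, Osi21, Osi22 and Osi23 had no promoter summit.

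**Figure D3:**
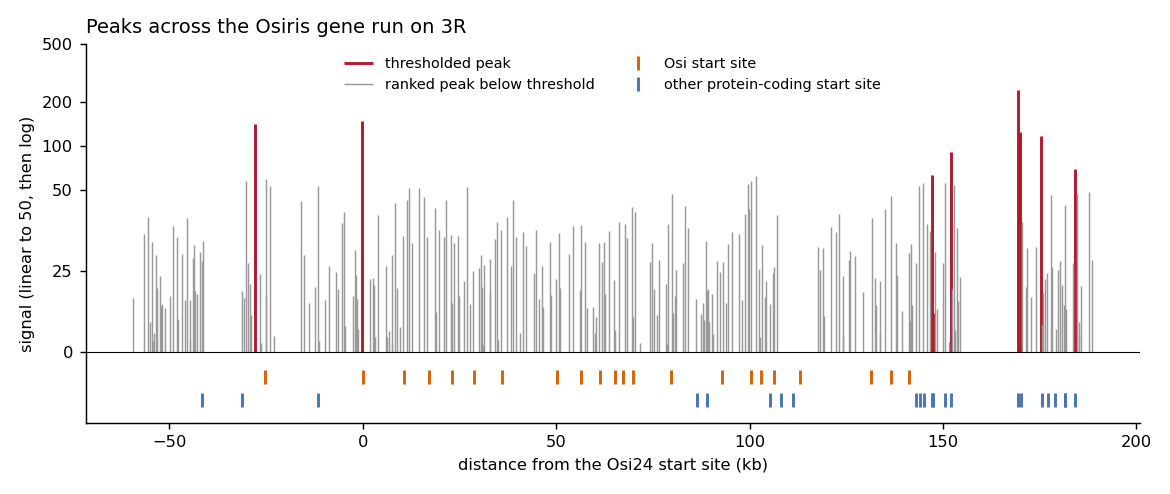
Signal of series-level ranked peaks (vertical axis, linear up to 50 and log above) against distance from the Osi24 start site (kb), with start sites of Osi and other protein-coding genes as ticks. Thresholded peaks are red: from that at Osi24, with a signal of 146.9, there is none for 147 kb to the right, where only grey peaks below the threshold stand.

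The Twdl run on 3R, from TwdlM to TwdlD, packs 12 genes into 21.9 kb and held no summit in the series-level list or in either replicate. Its strongest peak below the threshold had a signal of 62.1. The Cpr65A run on 3L, from Cpr65Au to Cpr65Az, held 2 summits, at 69.9 by Cpr65Ay and at 66.5 between Cpr65Av and Cpr65Aw, and none in either replicate alone. This run also holds 9 Lcp65A genes and Acp65Aa, further RR proteins under older names, and none of these 10 had a promoter summit.

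The other 2 runs lie on 2R. The Cpr49A run, from Cpr49Aa to Cpr49Ah, had 8 members in 38.5 kb and no summit in any of the 3 lists. The Cpr47E run, from Cpr47Ea to Cpr47Eg, had 7 members in 26.7 kb and 1 summit of signal 88.9, 701 bp from a TpnC47D start site, also found in replicate 2. No member on 2R (0 of 21), 2L (0 of 7) or X (0 of 7) had a promoter summit, while 3L had 4 of 35 and 3R had 1 of 48. Among all protein-coding genes the share was between 33.84% and 37.98% on each of these arms.

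The ranked lists show the members below the threshold. A peak of the series-level ranked list lay within 1 kb of a start site of 109 of 118 members (92.4%), against 87.2% of all protein-coding genes. Ranked peaks were dense, with 9.42 per 10 kb over the arms, so having such a peak does not by itself set a gene apart. The strongest such peak had a median signal of 44.7 for Cpr genes, 38.8 for Twdl genes and 38.3 for Osi genes, where 39.0 was the median of all protein-coding genes without a promoter summit and 55.7 that of all protein-coding genes. In the ranked list of replicate 1 the medians were 24.2, 21.1 and 21.0 for Cpr, Twdl and Osi genes, against 21.7 for genes without a series-level promoter summit. In replicate 2 they were 22.2, 20.7 and 20.8, against 20.5. These family medians include the members with a promoter summit. Members without a series-level promoter summit had medians of 41.05 in the series-level ranked list, 22.5 in replicate 1 and 21.6 in replicate 2. The 4 members with no ranked peak within 1 kb in any of the 3 lists were Cpr49Ac, Cpr49Ad, TwdlY and TwdlZ. No member had a ranked peak of score 830 or more that the thresholded list lacked. With scores down to 540, a setting added after the data were seen, 14 more members were counted, among them TwdlH, TwdlL, TwdlM, TwdlN, TwdlR and TwdlS of the Twdl run, against 43.1% of all protein-coding genes.

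**Figure D4:**
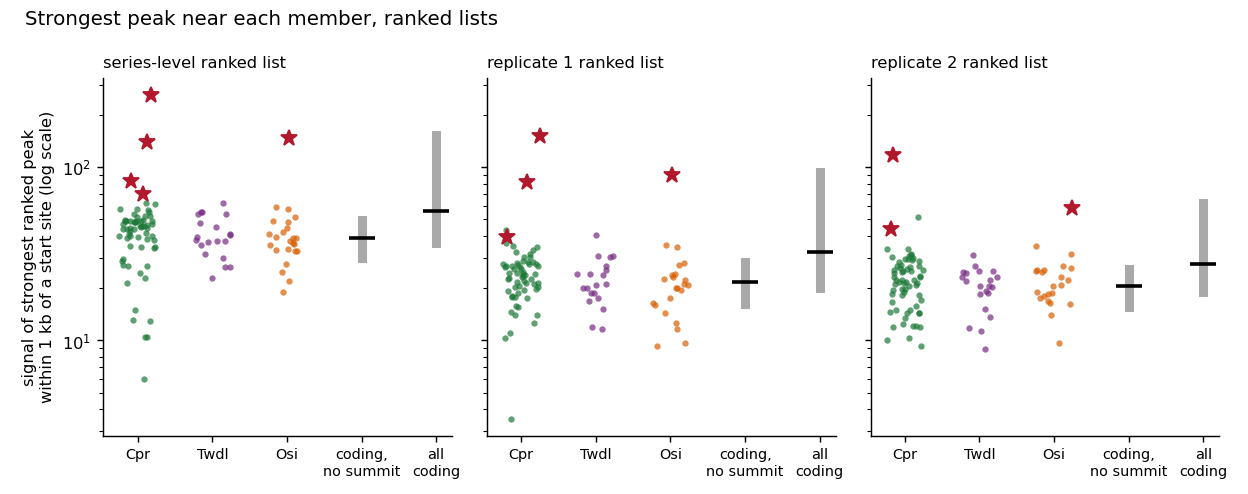
Signal of the strongest ranked peak within 1 kb of a start site (vertical axis, log scale) for each Cpr, Twdl and Osi gene in the series-level list and in replicates 1 and 2, which are not on a common scale. Stars are members with a thresholded promoter summit in that list; grey bars give quartiles and black lines medians of genes without a series-level promoter summit (39.0 in the series-level list) and of all protein-coding genes (55.7).

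The members share features of gene structure that the rule did not use. They were short, with a median length of 1203 bp against 2166 bp for all protein-coding genes, and 108 of 118 had a single annotated start site (91.5%, against 73.5%). Only 6 of 118, all of them Cpr genes, had the start site of another protein-coding gene within 1 kb (5.08%, against 42.9%). In genes shorter than 2000 bp with 1 start site the promoter share was 22.5% over all protein-coding genes, and among the 90 members of that kind 2 had a promoter summit (2.22%). In genes with no other protein-coding start site within 1 kb the share was 23.6% over all, and 4 of 112 among members (3.57%).

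Many members carry letters of the TATA box, the element of core promoters that binds the TATA-binding protein. The letters TATAAA, beginning 40 to 20 bases before the 5′ end of the gene on its own strand, were found in 57 of 118 members (48.3%), against 7.79% of all protein-coding genes. They were in 34 of 70 Cpr genes (48.6%), 14 of 23 Twdl genes (60.9%) and 9 of 25 Osi genes (36%). The reverse complement in the same window was in 1.69% of members and 1.47% of all genes. The initiator-like string TCAGT, on the same strand within 10 bases of the 5′ end, was in 11.0% of members and 11.7% of all genes. None of the 57 members with TATAAA had a promoter summit, against 5 of 61 members without it (8.20%). The letters were sought at the outermost 5′ end only, while a summit counted at any start site. For Cpr62Ba, 1 of the 5, the summit was near the inner start site, and the outer end had none within 1 kb. Over all protein-coding genes, promoter summits were found at 14.8% of those with TATAAA (161 of 1087) and at 38.3% of those without. The 250 bases before the 5′ end were 53.8% A and T at the median of the members, against 62.8% over all protein-coding genes, with 50.8% for Osi genes.

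To show these promoters, the 50 bases before and the first 10 bases of each gene are given on its own strand for the 5 members with a promoter summit and then for the members at the ends of the runs on 3L and 3R, in dm6 from the RefSeq copy. Capitals mark TATAAA within the window of 40 to 20 bases. For Cpr62Ba and Cpr73D the outermost start site is shown. That of Cpr62Ba is not the start site near its summit.
Cpr73D, chr3L:16957680-16957739: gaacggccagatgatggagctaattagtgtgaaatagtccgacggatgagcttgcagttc
Osi24, chr3R:6198761-6198820: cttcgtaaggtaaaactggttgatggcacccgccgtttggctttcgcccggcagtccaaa
Cpr67Fb, chr3L:10894123-10894182: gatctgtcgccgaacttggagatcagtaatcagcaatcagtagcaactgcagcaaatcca
Cpr62Ba, chr3L:1831774-1831833: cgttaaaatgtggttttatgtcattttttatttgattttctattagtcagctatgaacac
Cpr65Ay, chr3L:6158621-6158680: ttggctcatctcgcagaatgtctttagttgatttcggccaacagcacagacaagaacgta
Osi20, chr3R:6340045-6340104: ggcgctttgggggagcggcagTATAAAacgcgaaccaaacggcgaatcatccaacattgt
TwdlM, chr3R:26619068-26619127: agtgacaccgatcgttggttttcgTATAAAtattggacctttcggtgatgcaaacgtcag
TwdlD, chr3R:26639975-26640034: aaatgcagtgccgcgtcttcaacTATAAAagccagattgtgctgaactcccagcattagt
Cpr65Au, chr3L:6132100-6132159: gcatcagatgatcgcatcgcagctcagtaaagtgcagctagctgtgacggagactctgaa
Cpr65Az, chr3L:6160764-6160823: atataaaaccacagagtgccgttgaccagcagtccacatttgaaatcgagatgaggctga
None of the first 5 sequences holds TATAAA. Osi20, TwdlM and TwdlD hold it, Cpr65Au does not, and Cpr65Az has the letters farther upstream than the window.

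**Figure D5:**
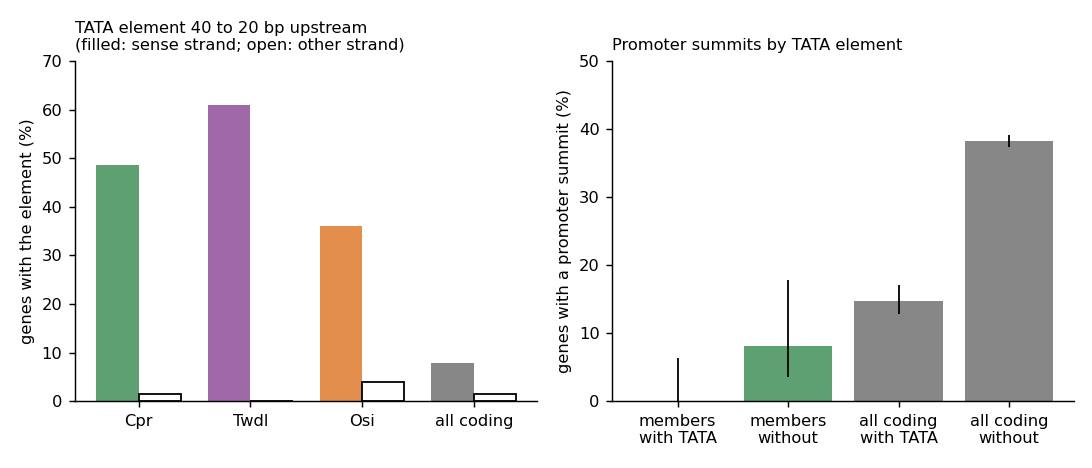
Left, percent of Cpr, Twdl, Osi and all protein-coding genes with the TATA element 40 to 20 bp upstream of the gene's 5′ end, on the gene's strand (filled) and on the other strand (open). Right, percent of genes with a series-level promoter summit by presence of the element, with 95% Wilson intervals: 0 of 57 members with it, 8.20% of members without it, 14.8% and 38.3% over all protein-coding genes.

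Near-identical gene copies can lose reads that map to several places, and the authors' handling of such reads is not given in the sources used here. Within 500 bases of the 5′ end, over 10% of the 31-base words occurred elsewhere in the genome for 6 of 118 members (5.08%, against 4.26% of all protein-coding genes). These were Cpr65Ax1 (76.4%) and Cpr65Ax2 (72.1%), and TwdlK, TwdlL, TwdlJ and TwdlM with 10.7% to 16.9%. The other 112 members stood at 10% or less. This share is not given here for the Lcp65A genes or the other cuticle genes counted below.

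Other genes of cuticle formation were counted in the same way. Of 28 RR cuticle proteins under other names, 2 had a promoter summit (7.14%, against 36.4% of all protein-coding genes), Ccp84Ag (FBgn0004777) with a signal of 91.8 and in neither replicate alone, and Lcp9 (FBgn0025578) with 76.6 and 59.8 in replicate 1. Of 27 genes listed as chitin-binding and apical matrix proteins 2 had one (7.41%, against the same 36.4%). They were trn (tartan), with 104.4 and 55.3 in replicate 2, which encodes a leucine-rich repeat protein of the cell surface and not a matrix protein, and the glycine-rich cuticle protein gene Edg91 (FBgn0004554), with 66.3 and 46.8 in replicate 1.

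Genes of enzymes and regulators stood between 17.6% and 40% by list, against 36.4% of all protein-coding genes (34.1% in replicate 1, 26.7% in replicate 2). The 95% Wilson intervals of all 3 lists include 36.4%, so these counts are not set apart from the background. Chitin synthesis and modification had 9 of 27 (33.3%; 8 in replicate 1 and 6 in replicate 2). The strongest were the chitinase gene Cht7 with a signal of 347.8 (217.0 in replicate 1, 127.0 in replicate 2), the imaginal disc growth factor gene Idgf6 with 223.8 (120.0 and 104.5), Gfat2, of the hexosamine pathway that supplies the chitin precursor, with 211.8 (135.0 and 93.0), and Idgf2 with 194.7 (112.7 and 83.7). Tanning and pigment enzymes had 3 of 17 (17.6%; 2 and 3 in the replicates). Those of the series-level list were Pu, GTP cyclohydrolase, with 178.1 (108.4 and 72.1), Ddc, dopa decarboxylase, with 112.4 (61.4 and 48.5), and the acetyltransferase gene speck with 83.4. The speck summit was in neither replicate alone, so the replicate 2 count includes a gene not named here. Transcriptional regulators of cuticle formation had 8 of 20 (40%; 9 and 7 in the replicates). The strongest were usp, the partner of the ecdysone receptor, with 261.7 (148.4 and 111.3), the zinc finger gene shn with 229.8 (126.8 and 113.3), the nuclear receptor gene Hr38 with 201.9 (93.7 and 98.0) and EcR, the ecdysone receptor gene, with 170.3 (103.1 and 66.7).

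Whole embryos mix all cell types, and a peak list cannot tell weak binding in many cells from binding in few cells. A low share of promoter summits is therefore a statement on thresholded peaks in whole embryos, not on epidermal cells alone.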

How the data were processed

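Peak lists on dm6 from 2 biological replicates were used. Per the labels, chromatin was sonicated to a size range of 200 to 800 (unit not stated). The aligner is not given in the sources used here, nor is the peak caller. Deposited peaks each carry a signal, the caller's own value, and a score, which the authors derived from the irreproducible discovery rate (IDR) named in their file titles; no thresholded peak has a score under 830. Summit offsets are also as deposited. The series-level thresholded list held 8786 peaks (8714 on the arms), replicate 1 had 7151 and replicate 2 had 5445.

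Summits (peak start plus offset, written 1-based) were joined to start sites of Ensembl release 115 without transposable elements. Sequence came from the RefSeq copy of the same build. Python 3.11.15, pandas 2.3.3 and SciPy 1.17.1 were used, and the joining code was tested on simulated data. Shares have 95% Wilson intervals, and no set test was run. Named were members with a promoter summit in a thresholded list, the genes sharing it, neighbours, the 10 members just outside the distance, run ends and up to 4 genes per other list. The members and lists were chosen with earlier results of these data known.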

Additional observations from a re-analysis of the deposited data

How the results depend on the processing

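The count of members with a promoter summit was 5 in the main setting. It stayed within 1.5 times of that with the conservative list, ranked peaks of score 830 or more, and peak intervals in place of summits. It also did so with nearest-gene assignment, 1 start site per gene, RefSeq start sites, and without promoters shared with genes outside the set. With signals at or above the list median it was 3, 2 of them Cpr genes, against 25.4% of all protein-coding genes. Within 500 bp it was 2 (Cpr65Ay and Osi24), with 1 Cpr gene, against 32% of all protein-coding genes, a share that moved less than the members' count. Within 2000 bp it was 15 (12 Cpr and 3 Osi genes), against 43.2%. With ranked peaks of score 540 or more, added after seeing the data, it was 19 (11 Cpr, 6 Twdl and 2 Osi genes), against 43.1%. Osi genes also numbered 2 in the conservative list and 2 with peak intervals. Leaving out 1 replicate gave 3 to 4 members, 2 to 3 Cpr genes and 26.7% to 34.1% of all genes; without replicate 1 only Cpr62Ba, Cpr73D and Osi24 were counted, and without replicate 2 Cpr67Fa1, Cpr67Fb, Cpr73D and Osi24. With nearest-gene assignment and without shared promoters, Cpr73D was counted only by its second summit, of signal 60.8. That summit was in neither replicate's thresholded list and not in the conservative list. The strongest Cpr73D peak, of signal 262.3, lay nearer to a start site of Ogdh and fell away in these settings. The share of all genes was 27.5% with nearest-gene assignment and 15.6% without shared promoters. For all genes the latter setting dropped summits shared with any other gene, a stricter rule than for members, which could share with other members. The cause of these shifts beyond the settings' own construction was not tested. No paired analysis was possible because the samples form 1 group.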

Other observations

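In the run of RR genes at Cpr65A, the summit of signal 66.5 lay between the start sites of Cpr65Av and Cpr65Aw, 1200 and 1239 bp from them, and Cpr62Bc had a summit of signal 72.3 in an exon 1173 bp from its start site (39.4 in replicate 1, none in replicate 2). Cpr51A, Cpr62Ba, Cpr62Bc and Cpr73D were the only members with a series-level summit inside the gene. The strongest ranked peak within 1 kb had a signal of 49.3 and a score of 781 at Cpr47Ec, and 52.4 and 758 at Cpr67B, where no thresholded peak has a score under 830.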
